A study of Rattus norvegicus with 8 samples.

Results

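Neuropeptide S is a short peptide that is cut from a secreted precursor encoded by *Nps*. In the rat brain it is made by small groups of neurons in the brainstem, best known beside the locus coeruleus, in the lateral parabrachial area and at the principal sensory trigeminal nucleus, and it is known for raising wakefulness while lowering anxiety-like behaviour. Its receptor, encoded by *Npsr1*, is a G protein-coupled receptor of the vasopressin and oxytocin receptor family that signals through Gs and Gq, so that both cAMP and intracellular calcium rise. The receptor is found more widely than the ligand, including in the midline thalamus, the hypothalamus, the amygdala and the cortex.

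The levels of this ligand and its receptor were taken from gene expression arrays of the rat substantia nigra (SN), the midbrain region that holds the dopaminergic neurons lost in Parkinson's disease. The members were 2 of 16678 genes named on the array, taken as all non-control probes whose RefSeq accession belongs to rat *Nps* or *Npsr1*. There were 2 such probes among 45598, 1 for *Nps* (A_64_P057360, NM_001271113) and 1 for *Npsr1* (A_64_P004516, NM_001106808), each printed as 1 spot. The pair was selected on measured values of these arrays, namely the calls of *Nps* above background in one group only, so the group difference of *Nps* is described here and not tested.

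Adult female Sprague Dawley rats, 3 months old at the start, had received a single one-sided injection into the SN of an adeno-associated viral vector of serotype AAV6. The AAV-αSyn group (4 arrays) received a vector carrying wild-type human α-synuclein, the protein that accumulates in Lewy bodies, and the AAV-Null group (4 arrays) received the vector without the transgene. The titre was 5.2e10 vector genomes per µl for AAV-αSyn and 5.3e9 for AAV-Null, so transgene and vector dose cannot be told apart in any difference between the groups. The SN of the injected side was dissected 20 weeks after surgery, and total RNA of each sample was labelled with a single dye. The promoter of the transgene is not given in the sources used here. The labels number the arrays of a group as replicates without saying that each came from a separate rat, so p-values measure the spread between these samples, which may be partly technical. The study's methods speak of biological replicates, fewer per group than the arrays used here, and do not say which arrays those were.

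All 8 arrays lay on 1 slide that was scanned once, and each column of the slide held 2 arrays of each group. Between 74.8% and 77.5% of the 58717 non-control spots per array were well above background, the call that Agilent's Feature Extraction software gives to a spot whose signal over background is significant and clearly larger than the spread of the background. Among the 9 tested marker genes of SN dopaminergic neurons, mean log2 levels lay between 12.01 and 12.44 on AAV-Null arrays and between 11.64 and 11.90 on AAV-αSyn arrays. Their tyrosine hydroxylase gene *Th* was above background on all 8 arrays, as were 65% of all probes and several markers of other regions given below. The call goes with the label of the tissue but cannot show how much of other regions was included.

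The *Nps* spot gave no signal above background on any AAV-Null array and was well above background on every AAV-αSyn array. Its processed intensity, the background-subtracted brightness in arbitrary units, was 2.10, 2.51, 2.30 and 2.66 in the AAV-Null group, replicates in order. In the AAV-αSyn group it was 20.1, 11.4, 26.2 and 21.4. The groups did not overlap, as for 2.57% of the 33853 probes tested in which every array of the AAV-αSyn group was the higher, a share that is only the background of the rule. The 4 AAV-Null values lay close together, and AAV-αSyn replicate 2 was the lowest of its group.

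The AAV-Null spots were not called above background on any array. Before Feature Extraction replaced them with small positive numbers, their background-subtracted signals were -4.16, -2.05, -1.11 and -2.14, all below 0. The processed intensity of these spots is thus a replacement. It was about the size of its own error estimate on all 4 arrays, with a ratio of 0.997 on each, so this ratio is no measure of signal. Each AAV-αSyn intensity was between 4.77 and 7.04 times its error. The raw signal showed the same split before any background model, with median pixel values of 30.0 to 32.5 on AAV-Null arrays and 42.5 to 62.0 on AAV-αSyn arrays, while the local background around the spot was 22 to 23 and 21 to 23. The raw median thus exceeded the local background in both groups, by 7 to 10.5 and by 21.5 to 39.0, and the calls rest on Feature Extraction's background model.

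The array also carries 308 negative-control spots, which match no rat transcript. Their processed intensity comes from the same background model as the calls, so they add no independent measure of background. On AAV-Null arrays, between 154 and 190 of the 308 control spots were as bright as the *Nps* spot or brighter. On AAV-αSyn arrays, 0 of the 308 reached it on any array. The *Nps* spot thus lay in the middle of the control spots in one group and above all of them in the other. On AAV-Null arrays its value is a replacement number, and the median of the control spots was near it, at 2.17, 2.51, 2.39 and 2.70. Its rank among them there is therefore no measure of signal. The 24 spots that surround the *Nps* spot on the array had a median intensity of 172 to 217 on AAV-Null arrays and 144 to 179 on AAV-αSyn arrays. The brightest of them was at 27188 to 29386 and 25904 to 31149.

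**Figure D1:**
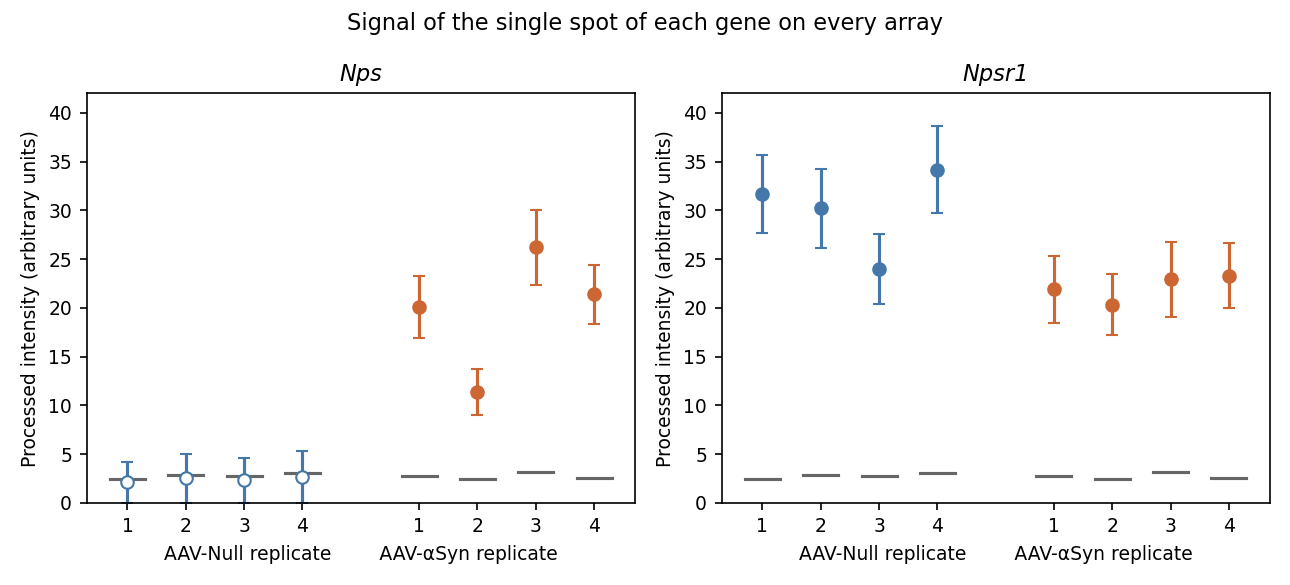
Processed intensity (arbitrary units, linear axis) of the *Nps* spot and the *Npsr1* spot on each of the 8 arrays, AAV-Null in blue and AAV-αSyn in orange. Bars are the Feature Extraction error of the spot, hollow circles are spots not well above background, and grey lines mark the 95th percentile of the negative-control spots of that array. The 4 AAV-Null *Nps* spots lie at 2.10 to 2.66, below the grey lines, and the 4 AAV-αSyn spots at 11.4 to 26.2.

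On the normalized log2 scale, on which the arrays share 1 distribution of values, *Nps* was 1.18, 1.29, 1.23 and 1.28 in the AAV-Null group, in the order of replicates 1 to 4. In the AAV-αSyn group it was 4.27, 3.75, 4.68 and 4.21. The group means were 1.25 ± 0.049 (SD, n = 4) and 4.23 ± 0.38 (SD, n = 4). The AAV-Null mean is a floor and not a level, so the ratio can be given only as a bound. The dimmest probe called well above background lay at 2.56 to 3.48 on the AAV-Null arrays, and against the mean of these values the AAV-αSyn mean of *Nps* was higher by at least 2.14-fold. This bound depends on where the floor is set, because the call is made spot by spot and some probes not called on AAV-Null arrays, such as *Mmp19* at up to 3.56, lay above the dimmest called one.

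In the log2 matrix that the authors deposited, which was normalized with all spots, *Nps* lay at 1.29 ± 0.030 (SD, n = 4) and 5.05 ± 0.34 (SD, n = 4). In a bulk sample such as this one, more cells that make a transcript and more of it per cell cannot be told apart, and neither can a larger share of tissue that holds such cells.

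The detection pattern of *Nps* was rare on the array. Of the 45598 non-control probes, 7 (0.0154%) were above background on 4 of 4 AAV-αSyn and 0 of 4 AAV-Null arrays, and 2 (0.00439%) showed the opposite pattern. This share is the background for the rule that chose *Nps*, and nothing is read from it about *Nps* itself. Of all probes, 65% were above background on every array, like *Npsr1*, and 25.8% on none.

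The 7 probes with the detection pattern of *Nps* included 4 with a gene symbol. The uncharacterised locus *LOC102556374* lay at 3.25, 1.90, 1.74 and 1.24 on AAV-Null arrays and at 5.88, 5.28, 6.61 and 4.38 on AAV-αSyn arrays (log2). *Uts2r*, the receptor of the peptide urotensin II, lay at 2.17, 1.41, 2.50 and 1.47 and at 5.30, 3.91, 4.93 and 5.14. Both genes had groups that did not overlap, as *Nps* did. *Mmp19*, a secreted matrix metalloproteinase, lay at 3.21, 3.56, 3.31 and 2.94 and at 3.87, 3.89, 3.73 and 3.28, so its groups overlapped. The other 3 probes of the pattern have no symbol in the accession table.

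**Figure D2:**
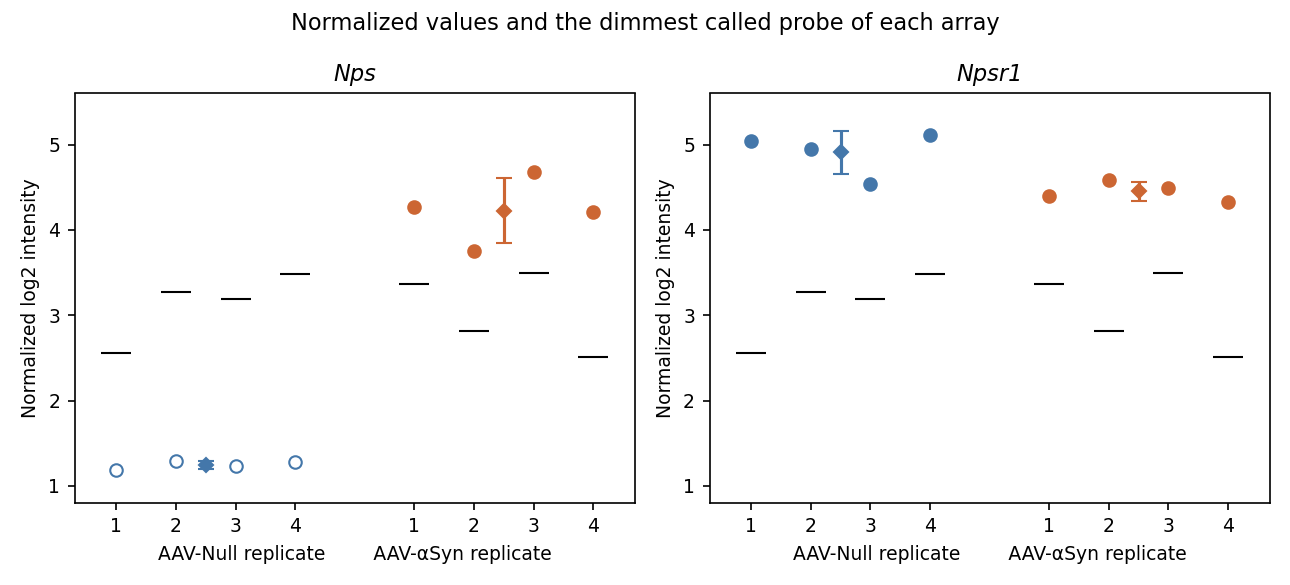
Normalized log2 intensity of *Nps* and *Npsr1* on each array (circles, hollow where the spot was not well above background), with the group mean ± SD (diamonds) and, as black dashes, the dimmest probe called well above background on that array. *Nps* is under the dash on all 4 AAV-Null arrays and over it on all 4 AAV-αSyn arrays, while *Npsr1* is over it on all 8.

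The receptor gene was detected in both groups, with lower values on most AAV-αSyn arrays and a difference that did not pass the test over all probes. The processed intensity of *Npsr1* was 31.7, 30.2, 24.0 and 34.2 in the AAV-Null group and 21.9, 20.3, 22.9 and 23.3 in the AAV-αSyn group, replicates in order. Every one of the 8 spots was well above background, at 5.96 to 7.96 times its error estimate. At most 1 of the 308 negative-control spots on any array was as bright. The 2 sets of intensities did not overlap, but only just. AAV-Null replicate 3 was at 24.0 with an error estimate of 3.57, and the brightest AAV-αSyn array at 23.3 with an error estimate of 3.31. The share of all probes without overlap was counted on normalized values only, so this split has no background share.

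After normalization the groups did overlap. *Npsr1* was then 5.04, 4.95, 4.54 and 5.11 in the AAV-Null group and 4.40, 4.59, 4.49 and 4.33 in the AAV-αSyn group (log2). AAV-Null replicate 3 fell below AAV-αSyn replicate 2, and the other 3 AAV-Null arrays lay above all AAV-αSyn arrays. The means were 4.91 ± 0.25 (SD, n = 4) and 4.45 ± 0.11 (SD, n = 4), a ratio of 1.38 in favour of AAV-Null.

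The log2 fold change of *Npsr1*, AAV-αSyn over AAV-Null, was -0.46 (standard error 0.13, 95% confidence interval -0.76 to -0.15), with an unadjusted p of 0.00834 and an adjusted p of 0.691 in limma with the Benjamini–Hochberg adjustment over 33853 probes. After normexp background correction, which adds an offset, the log2 fold change was -0.11 with an unadjusted p of 0.0772 (limma). An unadjusted p under 0.05 was reached by 5.64% of these probes, or 2.32% for those lower in the AAV-αSyn group, and 405 of them had a smaller p than *Npsr1*. An adjusted p under 0.05 was reached by 5 probes (0.0148%), all higher in the AAV-αSyn group. This share includes the *Nps* probe, the gene that was selected. Its place in the count is no test of *Nps*, since it was selected on these values and its AAV-Null values are a floor. In an exact permutation test of *Npsr1* alone (two-sided), p was 0.0571, where 4 arrays against 4 can give no less than 0.0286. The difference between the groups in the receptor transcript was thus not separated from the spread across all probes at this number of arrays.

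A single array carried much of the spread of *Npsr1*. Without AAV-Null replicate 3 the log2 fold change was -0.58 (limma, adjusted p = 0.311), and with each other array left out in turn it lay between -0.50 and -0.39. The difference was negative in both slide columns, at -0.59 and -0.33. With the slide column as a block the adjusted p was 0.830. The difference was also negative between the arrays of each slide row, at -0.64, -0.36, -0.05 and -0.78, and the smallest of these was the row of the third replicates. The row of an array is the same as its replicate number, and with the row as a block *Npsr1* had an unadjusted p of 0.0228 and an adjusted p of 0.701 (limma), while 0 of all probes passed the adjustment and 2218 had an unadjusted p under 0.05. In the authors' matrix *Npsr1* lay at 5.66 ± 0.23 (SD, n = 4) and 5.25 ± 0.096 (SD, n = 4).

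The order of the AAV-αSyn arrays by *Npsr1* depended on the scaling. By processed intensity *Npsr1* was lowest on replicate 2 and highest on replicate 4, whereas by normalized value it was highest on replicate 2 and lowest on replicate 4. *Nps* was highest on replicate 3 and lowest on replicate 2 of that group on both scales. Among the AAV-Null arrays *Nps* was at background, so its order there has no meaning, and *Npsr1* was lowest on replicate 3 on both scales. The levels of the 2 probes are not set against each other, because a probe's brightness depends on its own sequence.

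The genes whose profile over the 8 arrays was most like that of each member were taken by Pearson's r over 13647 other named genes. For *Nps* these included *Uts2r* (r = 0.957), the keratin gene *Krt73* (r = 0.957), *Nfat5*, a transcription factor of the response to osmotic stress (r = 0.953), and *Acat2*, a cytosolic enzyme that joins acetyl-CoA units (r = 0.948). Because *Nps* splits the arrays into its 2 groups, a high r with it is mostly a difference between those groups. *Krt73* lay at 3.58, 4.04, 3.88 and 4.08 on AAV-Null arrays and at 4.90, 5.12, 5.10 and 5.06 on AAV-αSyn arrays (log2 fold change 1.15, limma adjusted p = 0.0568). Its groups did not overlap, with the AAV-αSyn arrays higher, as for 2.57% of the probes tested. The genes were picked for their likeness to *Nps*, so such a split and its p come with the choice. The differences of *Nfat5* and *Acat2* were far smaller, at 0.24 and 0.17, and neither passed the adjustment.

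For *Npsr1* the nearest profiles were those of *Pogk* (r = 0.970), *C9h6orf132* (r = 0.957), *Adcy5* (r = 0.948), *Papss2* (r = 0.941) and *Adgrl2* (r = 0.935). *Pogk*, which encodes a protein with a domain of transposase origin, shared the dip on AAV-Null replicate 3, at 3.99, 3.95, 3.25 and 4.21 on AAV-Null arrays. On AAV-αSyn arrays it lay at 3.31, 3.26, 3.15 and 3.07, and it was well above background on 3 of 4 AAV-Null and 0 of 4 AAV-αSyn arrays, so much of its profile lies near background. *Adcy5* encodes an adenylyl cyclase, an enzyme that makes cAMP downstream of Gs, and its log2 fold change was -0.12 (limma adjusted p = 0.926). For *C9h6orf132*, *Papss2*, which makes the sulphate donor of the cell, and the adhesion receptor gene *Adgrl2* it was -0.66, -0.24 and -0.40, with limma adjusted p-values of 0.449, 0.780 and 0.643. The genes were picked for their likeness to *Npsr1* over these arrays, so the shared sign of the difference and the shared dip come with the choice. No p is given for *Pogk*, which was kept through the AAV-Null arrays alone, and the other genes did not pass the adjustment.

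The machinery that turns a neuropeptide precursor into a secreted peptide was present in both groups and showed no called difference. All 10 genes of this list were tested, and 0 had an adjusted p under 0.05, against 0.0148% of all probes. At an unadjusted p under 0.05 there were also 0, against 5.64% of all probes, so with 10 genes these counts are not read as a result about the list. Their median log2 fold change was -0.04, with 2 above 0 and 8 below, where the median of all 33853 probes was 0.01. *Pcsk1*, the prohormone convertase that cuts precursors, was 8.52, 8.29, 8.24 and 8.95 on AAV-Null arrays and 8.62, 8.63, 8.75 and 8.81 on AAV-αSyn arrays. *Cpe*, the carboxypeptidase that trims the cut peptide, lay between 14.78 and 15.04 and between 14.66 and 14.81. The values of both genes overlapped between groups, with adjusted p-values of 0.972 and 0.916 in limma.

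Downstream of the receptor, the genes of the Gs and Gq routes likewise gave no adjusted call. Of 31 tested genes, 0 passed the adjustment, and 1 (*Itpr1*) had an unadjusted p under 0.05, against 5.64% of all probes. The median log2 fold change was -0.03, with 13 above 0 and 18 below. The α subunit of Gs, *Gnas*, differed by 0.07 and that of Gq, *Gnaq*, by -0.07, with limma adjusted p-values of 0.973 and 0.974. *Itpr1*, the intracellular channel that releases calcium in response to inositol trisphosphate, was 11.97, 11.89, 11.90 and 12.37 on AAV-Null arrays and 11.46, 11.49, 11.56 and 11.44 on AAV-αSyn arrays (log2 fold change -0.55, limma adjusted p = 0.555). Its groups did not overlap, as for *Adcy5*, whereas the groups of the other 29 did, where 3.83% of all probes had groups that did not overlap.

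**Figure D3:**
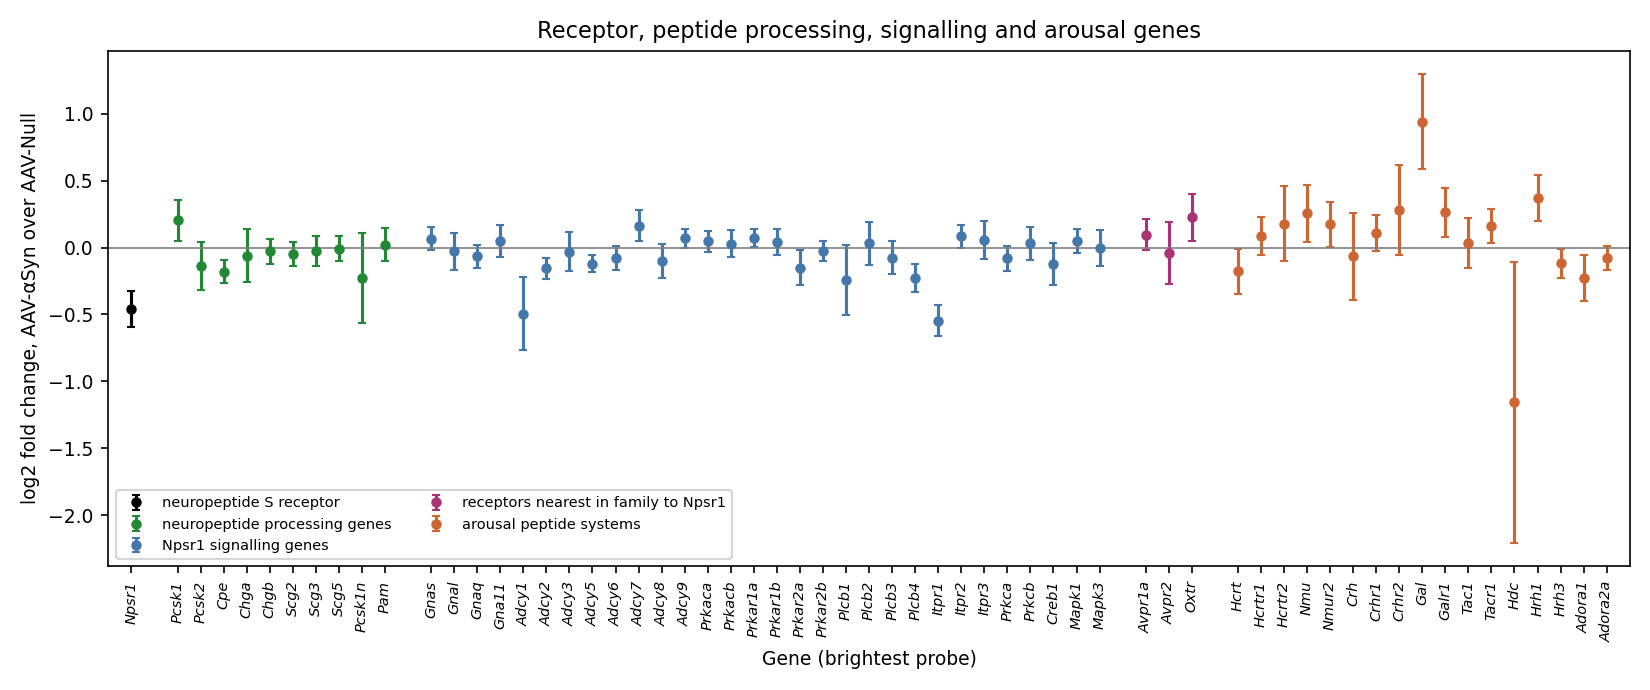
Log2 fold change, AAV-αSyn over AAV-Null, with its standard error, for *Npsr1* (black) and for genes of 4 lists, 1 probe per gene: precursor processing (green), signalling through Gs and Gq (blue), the receptors nearest in family (purple) and arousal systems (orange). *Npsr1* is at -0.46. No gene shown passed the adjusted threshold, and most lie within 0.3 of 0.

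The receptors closest in family to *Npsr1* had smaller estimated differences. Of 5 genes, 3 were above background on some array. The vasopressin receptor genes *Avpr1a* and *Avpr2* differed by 0.10 and -0.04 and the oxytocin receptor gene *Oxtr* by 0.23 on the log2 scale, and the groups of each overlapped (lowest limma adjusted p = 0.972). The other two, *Avpr1b* and *Gnrhr*, were not above background on any array.

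Other peptide and amine systems that act on arousal were represented by 17 tested genes of 18. *Crhr2*, a receptor gene of this list, was above background on 0 of 4 AAV-Null and 2 of 4 AAV-αSyn arrays. It was kept through the AAV-αSyn arrays alone, so its positive difference is not read as a result. Of the 17, 0 passed the adjustment (0.0148% of all probes) and 1 had an unadjusted p under 0.05 (5.64% of all probes), with a median log2 fold change of 0.11, 11 above 0 and 6 below. The 1 gene was *Gal*, which encodes galanin, at 10.36, 10.12, 11.25 and 10.70 on AAV-Null arrays and 11.60, 11.76, 10.64 and 12.19 on AAV-αSyn arrays (log2 fold change 0.94, limma adjusted p = 0.835). Its groups overlapped, since AAV-αSyn replicate 3 was below 2 of the AAV-Null arrays. On that same array *Nps* had its highest value. The orexin precursor gene *Hcrt*, whose product also promotes waking, lay between 6.57 and 7.42 on AAV-Null arrays and between 6.66 and 6.76 on AAV-αSyn arrays, a log2 fold change of -0.18.

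Since neurons that make neuropeptide S are known from the pons, marker genes of nearby brainstem nuclei were read on the same arrays. *Dbh*, the noradrenaline-synthesising enzyme that marks the locus coeruleus, was 1.99, 1.34, 1.72 and 2.26 on AAV-Null arrays and 1.31, 6.27, 7.30 and 7.38 on AAV-αSyn arrays. It was above background on 0 of 4 and 3 of 4 arrays. On AAV-αSyn replicate 1, where *Dbh* was not called above background, *Nps* was 4.27. Its AAV-Null values are a floor, so no fold or p is given for it.

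The noradrenaline transporter gene *Slc6a2* was at 3.55, 4.29, 3.82 and 3.63 on AAV-Null arrays and 2.76, 3.58, 3.80 and 3.57 on AAV-αSyn arrays, above background on 2 and 1 of them. Within the AAV-αSyn group it was lowest on replicate 1, as were *Dbh* and, at 6.89, *Tfap2b*. *Tfap2b* encodes a transcription factor of these neurons and differed by 0.37 (limma adjusted p = 0.973). *Phox2a* was not above background on any array. Over the 3 tested genes of the locus coeruleus list, the mean log2 level was 4.27 to 4.59 on AAV-Null arrays and 3.66 to 6.47 on AAV-αSyn arrays. This mean includes *Dbh*, which was kept through the AAV-αSyn arrays alone and is at the floor elsewhere, so it adds nothing to the *Dbh* values. Neither *Slc6a2* nor *Tfap2b* passed the adjustment or had an unadjusted p under 0.05 (limma), where 5.64% of all probes had one.

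Serotonergic genes of the raphe also differed between arrays. *Tph2*, the serotonin-synthesising enzyme of neurons, was 8.32, 8.12, 10.61 and 8.99 on AAV-Null arrays and 11.16, 11.51, 10.59 and 12.20 on AAV-αSyn arrays (log2 fold change 2.35, limma adjusted p = 0.600). AAV-Null replicate 3 was the highest of its group and overlapped with AAV-αSyn replicate 3. On these arrays *Nps* was 1.23, not called above background, and 4.68. All 4 tested raphe genes were above 0, 2 with an unadjusted p under 0.05, where 3.31% of all probes were higher at that threshold, and 0 with an adjusted one. Their mean log2 level was 5.97 to 8.52 on AAV-Null arrays and 7.71 to 9.01 on AAV-αSyn arrays.

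Markers of the parabrachial area had mostly lower values in the AAV-αSyn group, unlike *Nps*. Of 8 tested genes, 6 were below 0, 2 of them (*Calca* and *Foxp2*) with an unadjusted p under 0.05 (2.32% of all probes), and 0 passed the adjustment. *Calca*, which encodes the peptide CGRP of external parabrachial neurons, was 11.54, 11.07, 11.18 and 11.28 on AAV-Null arrays and 10.74, 10.71, 11.06 and 9.47 on AAV-αSyn arrays, and *Foxp2*, a transcription factor, was 8.42, 8.29, 8.12 and 8.85 and then 7.87, 7.98, 8.02 and 7.71. The groups of both genes did not overlap, with the AAV-αSyn arrays lower, as for 1.26% of all probes. The mean log2 level of the 8 genes was 9.80 to 10.08 and 9.44 to 9.93. Their part in the *Nps* values was not tested, nor was that of the noradrenergic and serotonergic markers.

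For the receptor, which is present in the thalamus, the thalamic markers are the closest comparison. *Prkcd* was 10.96, 12.94, 13.54 and 12.48 on AAV-Null arrays and 10.65, 11.58, 11.21 and 10.22 on AAV-αSyn arrays, and *Gbx2* was 9.75, 10.47, 11.20 and 10.35 and then 8.69, 9.89, 9.47 and 5.71. Both were lower on average in the AAV-αSyn group, as *Npsr1* was (means 12.48 and 10.91 for *Prkcd*, 10.44 and 8.44 for *Gbx2*, limma adjusted p = 0.785 and 0.876). Of the 2 tested genes, 2 had an unadjusted p under 0.05, where 2.32% of all probes were lower at that threshold, and 0 passed the adjustment. Both were highest on AAV-Null replicate 3, the array on which *Npsr1* was lowest in its group. The mean of both genes was 10.35 to 12.37 and 7.97 to 10.73, *Rora* and *Tcf7l2* had no probe, and the part of thalamic tissue in the *Npsr1* values was not tested.

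**Figure D4:**
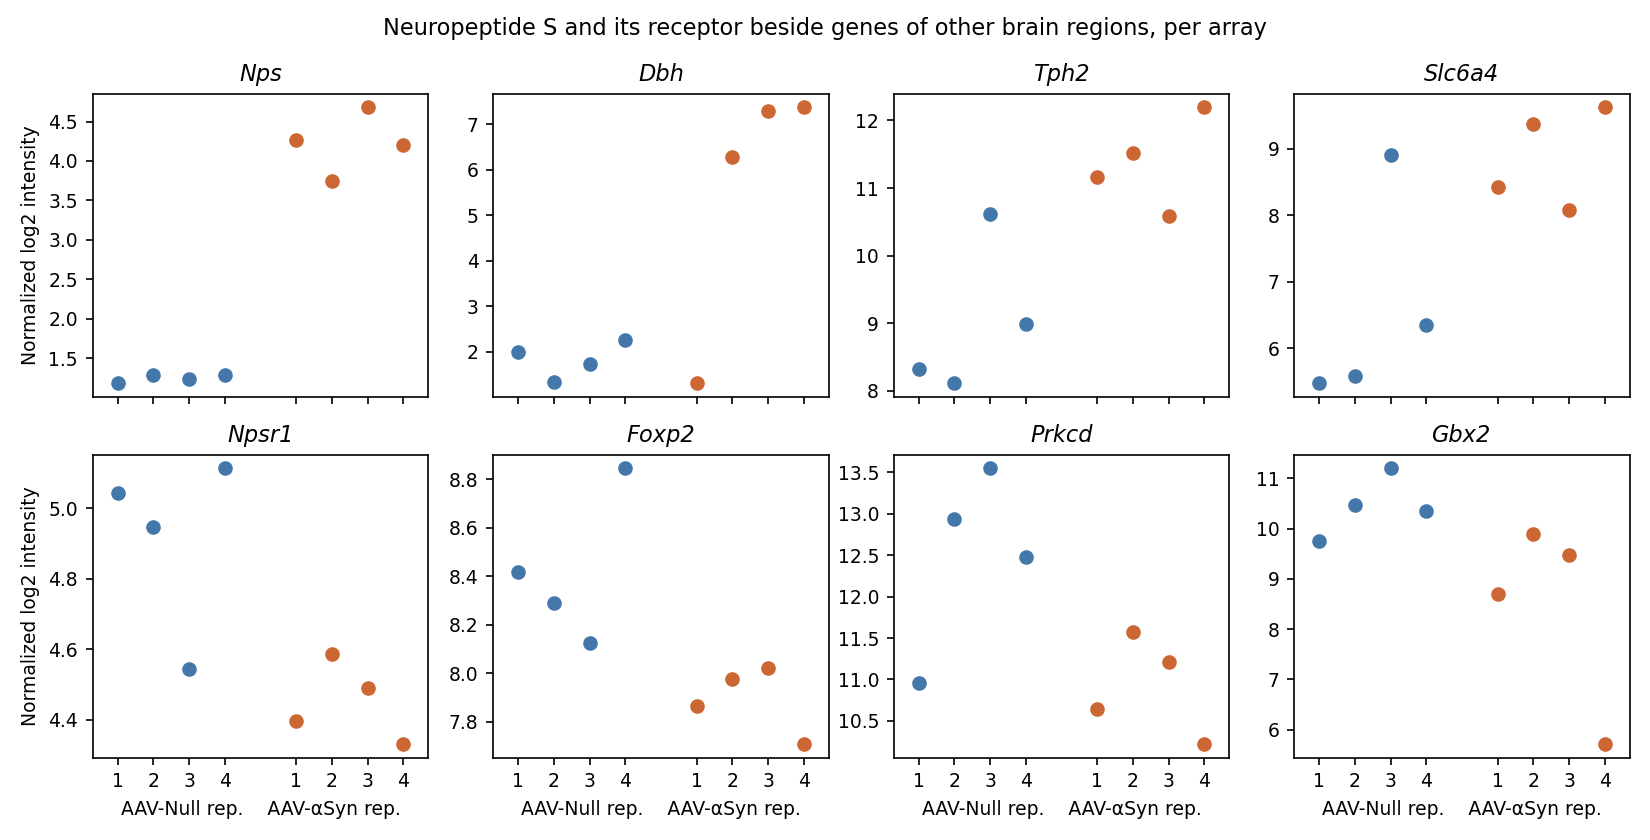
Normalized log2 intensity on each array of *Nps* and *Npsr1* (left column) beside *Dbh* (locus coeruleus), *Tph2* and *Slc6a4* (raphe), *Foxp2* (parabrachial area), *Prkcd* and *Gbx2* (thalamus), AAV-Null in blue and AAV-αSyn in orange. Each panel has its own axis range. The groups of *Nps* and *Foxp2* do not overlap and those of the other genes shown do. *Dbh* was not called above background on the AAV-Null arrays and on AAV-αSyn replicate 1.

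The hypothalamic, cerebellar, choroid plexus and blood lists gave 0 calls at an adjusted or an unadjusted p under 0.05 (limma), against 0.0148% and 5.64% of all probes. The choroid plexus gene *Kl* was above background on 0 of 4 AAV-Null and 2 of 4 AAV-αSyn arrays. It was kept through the AAV-αSyn arrays alone, so no result is read from it. Of 6 hypothalamic genes, 3 were above 0 and 3 below, with mean log2 levels of 7.74 to 8.67 on AAV-Null arrays and 7.70 to 7.89 on AAV-αSyn arrays. *Pmch*, the gene of melanin-concentrating hormone, was 9.81, 9.26, 8.66 and 14.32 on AAV-Null arrays and 9.07, 8.99, 9.78 and 9.12 on AAV-αSyn arrays. AAV-Null replicate 4 stood far above the rest, and *Hcrt* (7.42) was also highest on it, as was *Npsr1* (5.11). The histamine-synthesising enzyme gene *Hdc* (9.63), which is on the arousal list and not on this one, was highest there too. The hypothalamic list was not uniform on that array. *Avp*, *Oxt* and *Pomc* were at their lowest of the AAV-Null group on it, while *Agrp* was at its highest of that group. The part of hypothalamic tissue in the *Npsr1* values was not tested. The cerebellar genes *Gabra6* and *Cbln3* were not above background on any array, and *Pcp2* differed by -0.03. The mean log2 level of the 4 choroid plexus genes was 5.32 to 6.30 on AAV-Null arrays and 5.19 to 7.08 on AAV-αSyn arrays, and that of the 3 blood genes was 10.62 to 12.57 and 11.27 to 12.17. The dopaminergic genes of the SN all lay below 0, 9 of 9, with 4 at an unadjusted p under 0.05, where 2.32% of all probes were lower at that threshold, and 0 past the adjustment.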

How the data were processed

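Per the labels, each of the 8 arrays held single-dye cRNA of 1 SN sample, and samples were grouped by the label of their vector. The authors deposited Agilent Feature Extraction output (version 11.5.1.1 per the labels, 12.0.3.2 per the file headers) with intensity values per spot, and a matrix of log2 values that they had quantile normalized. In that matrix the values of every array share 1 distribution and keep the order of the deposited intensity values. Here, control and outlier spots were removed, probes with at least 0.5 of their spots well above background on at least 1 array were kept (33853 probes, with 11745 left out), and log2 processed intensity was quantile normalized, averaged per probe and fitted with limma 3.58.1 in R 4.3.3 (lmFit, eBayes, two-sided, Benjamini–Hochberg adjustment, threshold 0.05). Quantile normalization forces equal distributions, so a shift of all genes cannot be seen. The bound for *Nps* compares the AAV-αSyn mean with the dimmest called probe of the AAV-Null arrays, averaged over them. Symbols came from RefSeq by accession, which named 21229 of 45598 probes, and a gene was represented by its probe with the highest mean. Counting depth does not apply to arrays, and the 8 arrays limit the precision.

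The members, gene lists, marker lists and rules were chosen with earlier results of these data known. Named genes were the members, the genes of the lists, up to 5 genes nearest in profile to each member and the named genes with the detection pattern of *Nps*. A few genes that fall under this rule are not reported here, also in the plots. Alternatives covered the background correction (normexp, offset 50), scaling (75th percentile, cyclic loess, none), the filter, the deposited matrix, the variance model, blocks and leaving out each array. Correlation of deviations between arrays with the same replicate number was 0.14, 0.27, 0.04 and -0.0022, so the numbers were not taken to pair the samples, although each number is also 1 row of the slide.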

Additional observations from a re-analysis of the deposited data

Results flagged for a closer look

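In groups of 4 arrays, 5 of the 78 sets of values examined had 1 array set apart by Dixon's criterion for the gap to the nearest value over the range, where chance gives about 3.9. Neither *Nps* nor *Npsr1* was among them. AAV-Null replicate 3 was low for *C9h6orf132* (gap ratio 0.854, 5.55 against 5.95 to 6.01), the array on which *Npsr1* was also lowest in its group. AAV-Null replicate 4 was high for *Itpr1* (gap ratio 0.848, 12.37 against 11.89 to 11.97). AAV-αSyn replicate 2 was high for *Adcy5* (gap ratio 0.895), although the values differed by little, at 10.87 against 10.86. AAV-αSyn replicate 3 was high for *Pmch*, the melanin-concentrating hormone gene (gap ratio 0.832, 9.78 against 8.99 to 9.12), while the highest value of this gene was 14.32 on AAV-Null replicate 4. AAV-αSyn replicate 4 was high for *Prkaca*, a catalytic subunit of protein kinase A (gap ratio 0.864, 15.61 against 15.47 to 15.49).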

How the results depend on the processing

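The difference between the *Nps* group means, 2.98 on the log2 scale, was 0.40 after normexp background correction with its added offset and 3.76 in the deposited matrix. These are descriptions and no folds, since the AAV-Null spots were not above background. With probes required above background on all 8 arrays, *Nps* has no value. The *Npsr1* log2 fold change was negative and short of the adjusted threshold under every alternative run, from -0.50 (array weights) to -0.11 (normexp, unadjusted p = 0.0772), with adjusted p of 0.130 or more in limma; with each array left out it was -0.58 to -0.39. That range includes a fit without normalization between arrays, added after seeing the data (-0.43). The 4 list counts stayed at 0. The number of probes past the adjustment, 5, was 10 with array weights, 3 with the slide column as a block, and 3 to 5 with each array left out. Each AAV-Null array, when left out, gave 3. With the replicate number, which is also the slide row, as a block it was 0 (limma, 2218 at an unadjusted p under 0.05), and *Npsr1* had an adjusted p of 0.701. The number at an unadjusted p under 0.05 (limma) was 1908 in the main fit. It ranged from 1439 without AAV-αSyn replicate 2 to 4503 with array weights. In 2 of 4 replicate numbers the arrays correlated best with their own number. The cause of these changes was not tested. Both members are dim, so the number of arrays and the signal over background limit what can be seen.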
